A study of Mus musculus with 20 samples.

Results

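Collagens are secreted or membrane-bound proteins whose chains wind around each other into rigid helices, and they form most of the protein scaffold outside cells. The set described here holds every protein-coding gene whose name has the form Col, a number, the letter a and a number, which gave 44 of the 54532 genes in the count table and 44 of its 22046 protein-coding genes. Whole spleens of mice aged 4 weeks, bred on a gluten-free diet or kept as controls, were sequenced in 20 libraries. Each library carries an ID that is a plain number or a number after the letter S, and what that letter stands for is not given. The groups were gluten-free mice with plain IDs (4 libraries, 7 to 10), control mice with plain IDs (8 libraries, 1 to 8), gluten-free mice with S IDs (5 libraries, S1, S3, S5, S6 and S8) and control mice with S IDs (3 libraries, S1, S2 and S6). The labels give no strain, sex or control diet, and they do not say that each ID is a separate mouse, so p-values here measure the spread between these libraries. Levels are given as CPM, the field's unit of counts relative to library size, scaled by the trimmed mean of M values (TMM), and levels of different genes are compared only as CPM per kb of gene length.

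In the spleen, collagen fibres build the capsule and the trabeculae that run inward from it. Reticular fibres, which are rich in type III collagen and are ensheathed by fibroblastic reticular cells, carry the white and red pulp. Type IV collagens form the sheet-like network of basement membranes under mesothelium, endothelium and smooth muscle. Type VI collagens form beaded filaments that link cells and basement membranes to the fibres around them.

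Library totals ran from 13626000 to 24268200 counts. The markers fixed for fibroblasts, mesothelium, smooth muscle and endothelium were all detected in all 4 groups. Among the mesothelial markers, which stand for the capsule surface, Msln averaged 34.1 CPM and Upk3b 33.01 CPM over the 20 libraries. Among the fibroblast markers, Pdgfrb averaged 56.2 CPM and Dcn 69.8 CPM. Wt1 is on both the mesothelial and the fibroblast list, so these lists are not fully separate. The 10 markers of pancreatic acinar cells, a neighbouring tissue, summed to 10734 CPM in gluten-free S1 and 944 CPM in control 4, and to 29.0 CPM or less in the other 18 libraries. Collagen results that rest on those 2 libraries are given with and without them, while the marker lists were fitted with them only.

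Sequences before the gene starts are shown for 6 members on which the results below turn. They are the most abundant member (Col3a1) and the member with the smallest adjusted p for the diet within plain IDs (Col16a1). Next are 2 genes that lie head to head, Col4a5 and Col4a6, both called for a diet change that differed between the ID forms. The last are the gene called in the opposite direction within plain IDs (Col5a1) and a gene that kept its call in each alternative run there (Col17a1). Each line holds the 250 bases before the start of the gene, written 5′ to 3′ on the gene's own strand, from RefSeq on GRCm38.p6. The RefSeq starts of Col4a5 and Col17a1 lie slightly inside the gene bounds of the count table. Capitals mark matches on either strand to the CCAAT box (its reverse complement is ATTGG), to the TATA motif as TATAAA (reverse complement TTTATA) and to the GC box as GGGCGG (reverse complement CCGCCC); no 2 matches overlap in these 6 windows.
Col3a1, chr1:45311288-45311537, plus strand: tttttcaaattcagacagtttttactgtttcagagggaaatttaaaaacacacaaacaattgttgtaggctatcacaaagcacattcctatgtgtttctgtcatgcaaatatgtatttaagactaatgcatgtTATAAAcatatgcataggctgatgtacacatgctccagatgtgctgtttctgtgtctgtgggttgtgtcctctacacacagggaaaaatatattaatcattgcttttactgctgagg
Col16a1, chr4:130047590-130047839, plus strand: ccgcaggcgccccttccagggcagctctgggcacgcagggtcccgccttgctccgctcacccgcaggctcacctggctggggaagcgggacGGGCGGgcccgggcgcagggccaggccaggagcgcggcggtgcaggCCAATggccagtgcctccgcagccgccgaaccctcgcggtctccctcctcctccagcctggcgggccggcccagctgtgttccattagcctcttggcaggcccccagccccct
Col4a5, chrX:141475169-141475418, plus strand: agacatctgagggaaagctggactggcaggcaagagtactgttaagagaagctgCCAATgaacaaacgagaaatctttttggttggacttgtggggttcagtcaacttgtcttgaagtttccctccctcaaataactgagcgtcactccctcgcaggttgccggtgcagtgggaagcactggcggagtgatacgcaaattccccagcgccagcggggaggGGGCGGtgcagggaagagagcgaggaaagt
Col4a6, chrX:141474077-141474326, minus strand: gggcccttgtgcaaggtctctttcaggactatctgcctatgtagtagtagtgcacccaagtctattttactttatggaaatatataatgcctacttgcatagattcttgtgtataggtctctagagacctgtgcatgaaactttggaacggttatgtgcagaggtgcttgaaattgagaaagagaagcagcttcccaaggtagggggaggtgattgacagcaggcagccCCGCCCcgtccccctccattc
Col5a1, chr2:27886175-27886424, plus strand: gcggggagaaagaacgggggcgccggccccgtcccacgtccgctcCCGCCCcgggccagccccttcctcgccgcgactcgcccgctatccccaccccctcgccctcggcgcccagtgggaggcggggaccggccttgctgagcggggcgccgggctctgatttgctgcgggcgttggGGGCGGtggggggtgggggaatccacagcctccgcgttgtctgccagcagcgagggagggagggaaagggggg
Col17a1, chr19:47692043-47692292, minus strand: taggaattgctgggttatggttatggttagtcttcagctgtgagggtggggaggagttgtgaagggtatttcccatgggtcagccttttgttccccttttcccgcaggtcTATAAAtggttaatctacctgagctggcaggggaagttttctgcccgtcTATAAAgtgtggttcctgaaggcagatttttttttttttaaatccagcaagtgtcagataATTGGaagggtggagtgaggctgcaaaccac

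The Col3a1 window held 1 TATAAA, 112 bases before the start, and neither of the other motifs. Col5a1 had 2 GGGCGG matches, 200 and 68 bases before the start, and Col16a1 had 1 CCAAT match at 109 bases and 1 GGGCGG match at 154 bases. The starts of Col4a5 and Col4a6 lie 1343 bases apart on opposite strands of the X chromosome, and each window held 1 GGGCGG match, 25 bases before the start of Col4a5 and 16 bases before that of Col4a6. Col4a5 also had a CCAAT match at 192 bases. Col17a1 held 2 TATAAA matches, 135 and 86 bases before the start, and 1 CCAAT match at 27 bases on the other strand. Windows were at hand for 35 of the 44 members (38 windows in all, since some genes have 2 starts). GGGCGG was present in 22 of the 38 windows (57.9%), against 32.7% of the 32851 windows of all genes. CCAAT was present in 13 of the 38 (34.2%), against 33.8% of all windows, and TATAAA in 5 of the 38 (13.2%), against 12.4% of all windows. These matches describe letters in the windows and do not show binding.

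Several members lie beside each other in the genome (GRCm38). Col3a1 (chr1:45311538-45349706) and Col5a2 (chr1:45374321-45503282) are neighbours on opposite strands of chromosome 1. Col4a1 (chr8:11198423-11312826) and Col4a2 (chr8:11312805-11449287) start head to head on chromosome 8 with first exons that overlap by 22 bases. Col4a4 (chr1:82448423-82586849) and Col4a3 (chr1:82586921-82722059) also start head to head, on chromosome 1. Col6a2 (chr10:76595762-76623630) and Col6a1 (chr10:76708792-76726168) lie on chromosome 10, and Col6a6 (chr9:105687809-105828160), Col6a5 (chr9:105856078-105960643) and Col6a4 (chr9:105989454-106096783) lie in a row on chromosome 9. The strand setting of the counting is not stated, so reads in exons shared with a gene on the other strand cannot be assigned with certainty.

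Type III collagen led the spleen's collagen RNA, followed by the 2 common type IV chains. Per kb of gene length, Col3a1 averaged 41.7 CPM over the 20 libraries, Col4a1 29.6, Col4a2 21.8, Col14a1 21.8, Col1a2 16.9, Col6a1 15.6, Col1a1 14.1 and Col5a1 8.20. Neighbours in this order overlapped over the libraries in each case, as the plot of levels per kb shows. Together the 44 members took 0.0719% to 0.269% of a library's counts. Of the 44 members, 38 passed the filter on low counts and were tested, and 36 of these averaged at least 1 CPM. The 6 others had few counts over all 20 libraries: 85 for Col24a1, 76 for Col19a1, 54 for Col10a1, 40 for Col2a1, 11 for Col22a1 and 7 for Col9a1. Col2a1, Col9a1 and Col10a1 encode collagens of cartilage, and the 6 cartilage markers summed to 1.59 to 6.96 CPM per library, from 11 counts in all of Matn3 to 696 of Chad. Col9a2 and Col25a1 were tested at averages of 0.544 and 0.474 CPM.

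**Figure D1:**
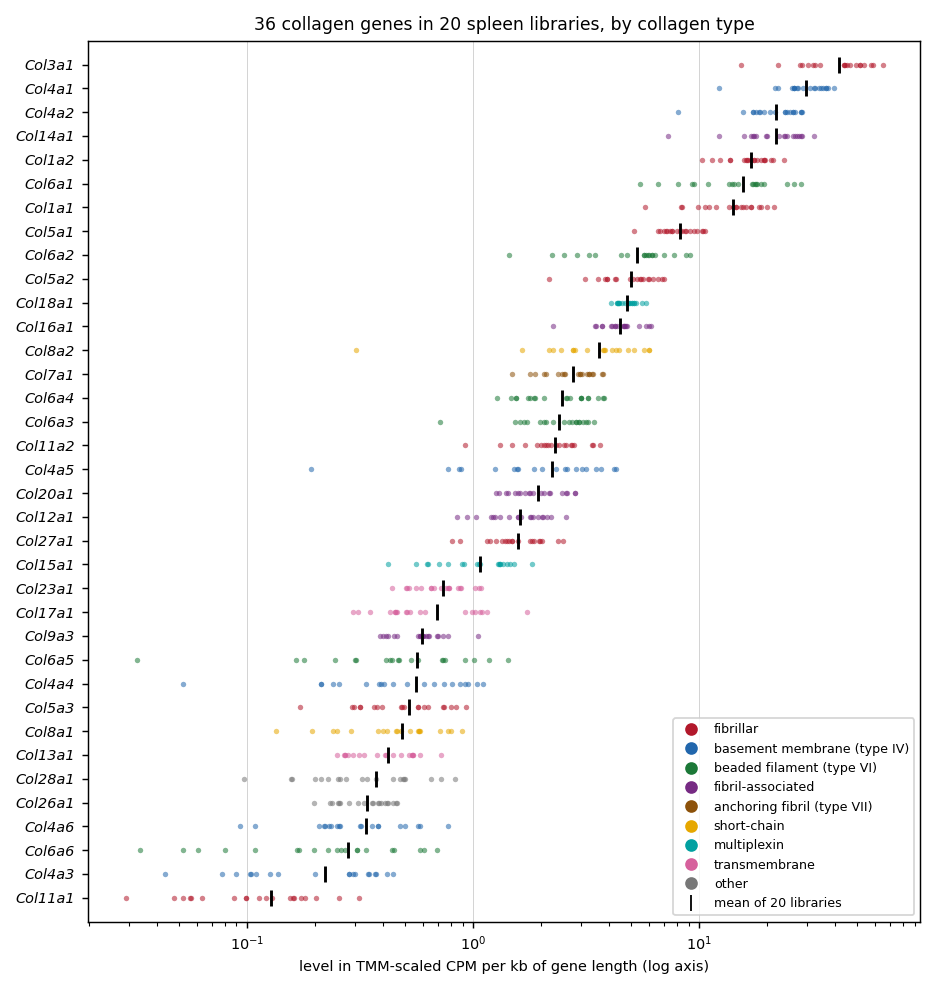
Level of the 36 collagen genes that averaged 1 CPM or more, in TMM-scaled CPM per kb of gene length on a log axis; each point is 1 of 20 libraries, coloured by collagen type, and the vertical tick is the mean. Col3a1 had the highest mean (41.7 CPM per kb) and Col11a1 the lowest (0.128); Col4a3 was at 0 in gluten-free S5, which a log axis cannot show.

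For the abundant members, values of the gluten-free groups are in the order of IDs 7, 8, 9 and 10, and S1, S3, S5, S6 and S8, and those of the control S-ID group in the order S1, S2 and S6. Col3a1, the type III chain of reticular fibres, measured 315, 567, 504 and 431 CPM in gluten-free plain-ID libraries and 220.2 to 505 CPM (median 383) in control plain-ID libraries. In S-ID libraries Col3a1 measured 576, 273, 150.4, 432 and 318 CPM in gluten-free and 636, 525 and 445 CPM in control mice. The groups overlapped in both ID forms, and gluten-free S5 was the lowest of the 20 libraries. Col1a1 and Col1a2 encode the chains of type I collagen, the main tensile fibre. Col1a1 measured 89.1, 141, 123 and 105 CPM in gluten-free plain-ID libraries and 55.4 to 131 CPM (median 95.5) in control plain-ID libraries. In S-ID libraries Col1a1 measured 100.3, 72.7, 37.8, 92.4 and 54.8 CPM in gluten-free and 121, 77.8 and 103 CPM in control mice. Gluten-free 8 was its highest library and gluten-free S5 its lowest, and the groups overlapped. Col1a2 measured 201, 259, 263 and 224 CPM in gluten-free plain-ID libraries and 142 to 240.3 CPM (median 198) in control plain-ID libraries. In S-ID libraries Col1a2 measured 244, 204, 128, 232 and 169 CPM in gluten-free and 295, 217 and 239 CPM in control mice. Again the groups overlapped in both ID forms, with gluten-free S5 lowest. Col14a1, a collagen that coats the surface of type I fibrils, measured 121, 193, 199.8 and 171 CPM in gluten-free plain-ID libraries and 85.6 to 190.2 CPM (median 153) in control plain-ID libraries. In S-ID libraries Col14a1 measured 186, 126, 51.3, 118 and 159 CPM in gluten-free and 199, 225 and 139 CPM in control mice, with overlap in both forms.

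Col4a1 and Col4a2 encode the chains of the common basement membrane network. Col4a1 measured 191, 273, 263 and 231 CPM in gluten-free plain-ID libraries and 161 to 272 CPM (median 222) in control plain-ID libraries. In S-ID libraries Col4a1 measured 252, 195, 91.4, 167 and 202 CPM in gluten-free and 294, 279 and 216 CPM in control mice. Gluten-free S5 was below every other library and the groups overlapped. Col4a2 measured 123, 187, 173 and 158 CPM in gluten-free plain-ID libraries and 103 to 189 CPM (median 152) in control plain-ID libraries. In S-ID libraries Col4a2 measured 159, 114, 53.3, 115 and 122 CPM in gluten-free and 187, 163 and 143 CPM in control mice, again with gluten-free S5 lowest and with overlap of the groups. Per kb, the ratio of Col4a2 to Col4a1 stayed between 0.657 and 0.816 over all 20 libraries.

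Most members were high or low in the same libraries, within each diet as well as between diets. Gluten-free S5 was the lowest library for 24 of the 36 members that averaged 1 CPM or more, and the median member lay 1.14 log2 units below its own mean there. Its total of 18008300 counts was within the range of the others. Gluten-free 8 was the highest library for 10 members and control S1 for 8. Gluten-free 8, 9 and 10 stood above the mean for 34, 35 and 33 of the 36 members, and gluten-free 7 for 13. Control 2 and control 3 stood above it for 6 and 3. The spread differed among members: leaving aside Col4a3, which had no count in gluten-free S5, the highest library exceeded the lowest by 43.7-fold for Col6a5, 22.2-fold for Col4a5, 21.1-fold for Col4a4, 20.7-fold for Col6a6 and 19.9-fold for Col8a2, but by 1.43-fold for Col18a1 and 2.06-fold for Col5a1. The low end of the wide ranges rests on 5 counts each of Col6a5 and Col6a6, 9 of Col4a4 and 21 of Col4a5 in gluten-free S5.

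The sum of the mesothelial markers moved over a similar course. It was 21.7 CPM in gluten-free S5, the lowest of the 20 libraries, and 250.4 CPM in control S1, the highest. The fibroblast sum was also lowest in gluten-free S5, at 122 CPM, with 394 CPM in gluten-free 9 and 380.4 CPM in control S1. Whether the amount of capsule or stroma in the piece that was extracted set these levels was not tested. In whole tissue, fewer cells of a type and less RNA per cell cannot be told apart.

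**Figure D2:**
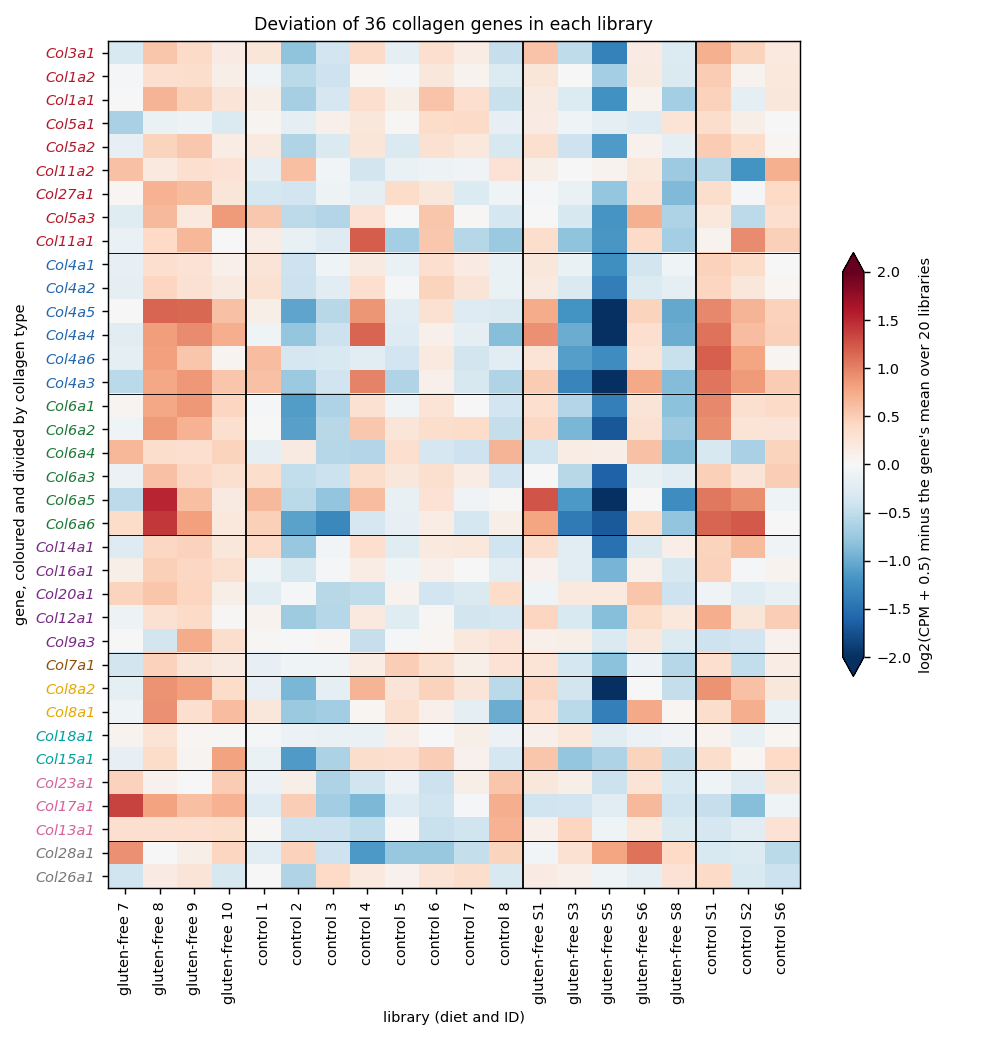
Deviation of each of 36 collagen genes (rows, grouped by type) from its own mean over 20 libraries (columns), as log2(CPM + 0.5); black lines divide gluten-free plain, control plain, gluten-free S and control S libraries, and colours end at 2 log2 units. Gluten-free S5 is low for most rows, while Col5a1, Col18a1, Col17a1 and Col28a1 show little or none of this.

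Within the plain IDs, the gluten-free libraries had more RNA of Col16a1, Col17a1, Col20a1, Col6a1, Col27a1, Col6a6, Col4a5 and Col8a1 and less of Col5a1. Calls were made below an adjusted p of 0.05 in edgeR's quasi-likelihood test, with adjustment by the Benjamini-Hochberg method over the 18362 genes tested. Of the 38 members tested, 8 were called higher (21.1%) and 1 lower (2.63%), where 39.6% of all tested genes were called in the same comparison, 17.5% higher and 22.1% lower. The share called higher was thus near that of all genes, and the share called lower was below it. The estimated fold change was above 0 for 36 of the 38 members, against 52.4% of all genes, and the median was 0.39 (log2) against 0.03 for all genes. No member's gluten-free and control values were fully apart, since each of the 38 overlapped by at least 1 library. The share of all genes without overlap was not counted, in this comparison or in those below, so members without overlap cannot be set against it.

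Fibrillar members called within plain IDs were Col5a1 and Col27a1. Col5a1, whose product starts type I fibrils and limits their width, measured 43.7, 62.8, 64.2 and 55.8 CPM in gluten-free plain-ID libraries and 59.7 to 89.9 CPM (median 72.5) in control plain-ID libraries. In S-ID libraries Col5a1 measured 77.3, 64.4, 60.7, 57.2 and 82.8 CPM in gluten-free and 87.5, 74.4 and 67.9 CPM in control mice. Gluten-free 7 was the lowest of all, gluten-free 8 and 9 lay within the control range, and the S-ID groups overlapped. The log2 fold change within plain IDs was -0.39 ± 0.13 (standard error; adjusted p = 0.0223, edgeR quasi-likelihood test, n = 4 and 8). Col27a1, known from cartilage, measured 20.6, 32.5, 31.0 and 23.6 CPM in gluten-free plain-ID libraries and 15.1 to 25.8 CPM (median 18.0) in control plain-ID libraries. In S-ID libraries Col27a1 measured 19.3, 18.1, 11.4, 24.2 and 10.6 CPM in gluten-free and 25.5, 19.3 and 26.3 CPM in control mice. Gluten-free 8 and 9 stood above every control plain-ID library and the other 2 among the control values, with a fold change of 0.52 ± 0.15 (adjusted p = 0.0140).

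Among the basement membrane chains Col4a5, a partner in the rarer type IV networks, was called. It measured 12.5, 28.8, 28.3 and 19.2 CPM in gluten-free plain-ID libraries and 5.82 to 23.6 CPM (median 10.5) in control plain-ID libraries. In S-ID libraries Col4a5 measured 21.3, 5.21, 1.30, 17.2 and 5.92 CPM in gluten-free and 24.8, 20.3 and 17.5 CPM in control mice. Gluten-free 7 and 10 lay within the control plain-ID range, gluten-free 8 and 9 were the highest of all libraries, and gluten-free S5 was the lowest. Its fold change within plain IDs was 0.86 ± 0.28 (adjusted p = 0.0236). The other type IV chains had fold changes from 0.11 (Col4a2) to 0.72 (Col4a4) and were not called. Median levels of Col4a4 were 8.92 CPM in gluten-free plain-ID, 4.18 in control plain-ID, 2.27 in gluten-free S-ID and 7.88 in control S-ID libraries. Those of Col4a3 were 3.20 CPM in gluten-free plain-ID, 1.31 in control plain-ID, 0.774 in gluten-free S-ID and 3.69 in control S-ID libraries. Those of Col4a6 were 3.18 CPM in gluten-free plain-ID, 1.94 in control plain-ID, 1.66 in gluten-free S-ID and 4.58 in control S-ID libraries. In all 3 the gluten-free median was the higher one within plain IDs and the lower one within S IDs.

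Type VI collagens are built around the chain of Col6a1, which joins those of Col6a2 and Col6a3 or, in place of Col6a3, of Col6a4, Col6a5 or Col6a6. Col6a1 measured 65.2, 107, 115 and 85.0 CPM in gluten-free plain-ID libraries and 28.8 to 77.7 CPM (median 60.5) in control plain-ID libraries. In S-ID libraries Col6a1 measured 78.8, 41.7, 24.0, 75.2 and 35.2 CPM in gluten-free and 123, 78.5 and 82.2 CPM in control mice. Gluten-free 8, 9 and 10 exceeded every control plain-ID library, gluten-free 7 did not, and among the S IDs control S1 was highest. The fold change within plain IDs was 0.71 ± 0.21 (adjusted p = 0.0129). Col6a6 measured 2.83, 6.39, 4.10 and 2.50 CPM in gluten-free plain-ID libraries and 0.559 to 3.09 CPM (median 1.69) in control plain-ID libraries. In S-ID libraries Col6a6 measured 4.01, 0.477, 0.309, 2.83 and 0.996 CPM in gluten-free and 5.33, 5.59 and 2.08 CPM in control mice. Gluten-free 8 was its highest library, gluten-free S5 its lowest, and the groups overlapped. Col6a6 had the largest fold change of the 38 within plain IDs, 1.17 ± 0.36 (adjusted p = 0.0157), at a low level of 5 to 149 counts per library. Col6a2, Col6a3, Col6a4 and Col6a5 were not called, with fold changes from 0.27 (Col6a3) to 0.61 (Col6a5). Median levels of Col6a2 were 57.4 CPM in gluten-free plain-ID, 43.8 in control plain-ID, 24.0 in gluten-free S-ID and 48.4 in control S-ID libraries. Those of Col6a3 were 35.3 CPM in gluten-free plain-ID, 31.1 in control plain-ID, 23.6 in gluten-free S-ID and 37.9 in control S-ID libraries. Col6a4 and Col6a5 had medians of 26.7 and 5.94 CPM in gluten-free plain-ID libraries and of 16.7 and 4.27 CPM in control plain-ID libraries. In gluten-free S-ID libraries the same 2 genes had medians of 22.0 and 1.69 CPM, and in control S-ID libraries of 16.0 and 8.71 CPM.

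Among collagens that sit on fibrils, Col16a1 and Col20a1 were called. Col16a1 measured 32.2, 41.3, 39.3 and 36.7 CPM in gluten-free plain-ID libraries and 23.6 to 32.6 CPM (median 28.2) in control plain-ID libraries. In S-ID libraries Col16a1 measured 31.4, 25.2, 15.3, 31.5 and 23.4 CPM in gluten-free and 40.6, 28.6 and 31.0 CPM in control mice. Only control 4, at the top of its group, reached the level of gluten-free 7, at the bottom of its own, and the fold change was 0.40 ± 0.10 (adjusted p = 0.00392, the smallest of the 38). Col20a1, a member of the same family, measured 13.4, 14.5, 13.2 and 10.6 CPM in gluten-free plain-ID libraries and 6.497 to 12.7 CPM (median 8.09) in control plain-ID libraries. In S-ID libraries Col20a1 measured 9.08, 11.2, 11.2, 14.5 and 7.19 CPM in gluten-free and 9.23, 8.14 and 8.77 CPM in control mice. Control 8 lay within the gluten-free values, and the fold change was 0.58 ± 0.17 (adjusted p = 0.0110). Col20a1 shares 79 exon bases with BX649560.1 on the same strand, which had 2487 counts against 3789 of Col20a1, so its counts are less certain than those of the other members.

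Col8a1, a short-chain collagen of vessel walls, measured 3.25, 6.99, 4.52 and 5.59 CPM in gluten-free plain-ID libraries and 1.51 to 4.47 CPM (median 3.29) in control plain-ID libraries. In S-ID libraries Col8a1 measured 4.51, 2.26, 1.05, 6.26 and 3.60 CPM in gluten-free and 4.58, 6.10 and 3.13 CPM in control mice. Gluten-free 7 was inside the control range, and the fold change was 0.74 ± 0.28 (adjusted p = 0.0448). Col17a1, a membrane-spanning collagen best known from the hemidesmosomes of skin, measured 9.96, 6.64, 5.73 and 6.18 CPM in gluten-free plain-ID libraries and 1.70 to 6.30 CPM (median 2.93) in control plain-ID libraries. In S-ID libraries Col17a1 measured 2.60, 2.65, 3.03, 5.92 and 2.60 CPM in gluten-free and 2.48, 1.78 and 3.37 CPM in control mice. Among the plain-ID controls, control 8 was the library that reached the gluten-free values, and the fold change was 1.05 ± 0.29 (adjusted p = 0.00829). Col17a1 showed no drop in gluten-free S5.

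**Figure D3:**
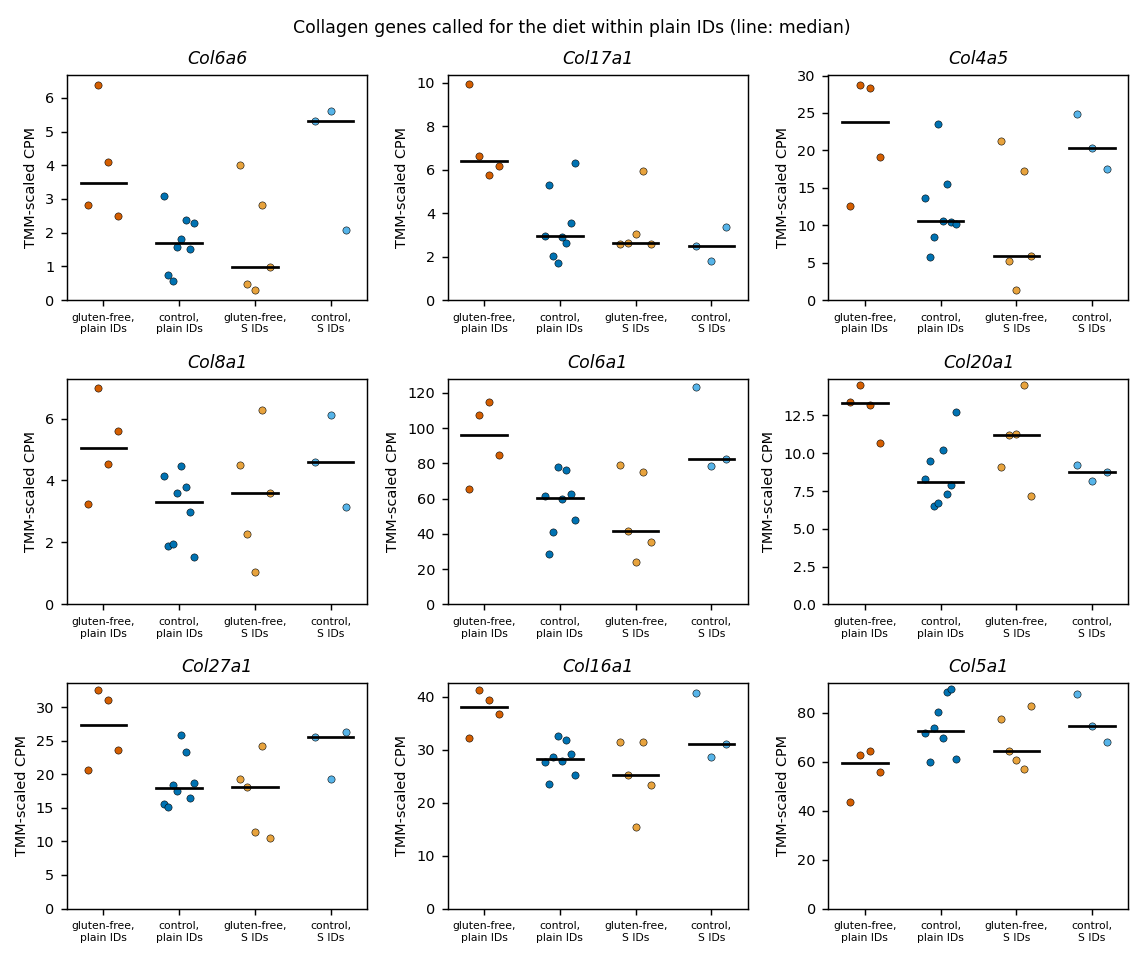
TMM-scaled CPM of the 9 collagen genes called for the diet within plain IDs, by diet and ID form; each point is 1 library and the line is the median. The gluten-free plain-ID medians are above the control plain-ID medians in 8 panels and below in Col5a1, and the groups overlap in each panel.

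Among the members of highest level per kb, Col6a1 and Col5a1 were called within plain IDs, as given above. Col3a1, Col1a1, Col1a2, Col4a1, Col4a2 and Col14a1 were not called. Fold changes were 0.27 ± 0.20 for Col3a1 (adjusted p = 0.305, edgeR), 0.32 ± 0.19 for Col1a1 (0.195) and 0.31 ± 0.13 for Col1a2 (0.0645). They were 0.11 ± 0.13 for Col4a1 (adjusted p = 0.514, edgeR), 0.11 ± 0.15 for Col4a2 (0.586) and 0.23 ± 0.18 for Col14a1 (0.329). Col5a2, whose chain joins that of Col5a1, had median levels of 57.1 CPM in gluten-free plain-ID, 45.0 in control plain-ID, 40.7 in gluten-free S-ID and 59.8 in control S-ID libraries and a fold change of 0.31 ± 0.17 (adjusted p = 0.150). Col18a1, a basement membrane collagen whose end is cut off as endostatin, was the steadiest member, with group means of 36.3 ± 3.18 CPM in gluten-free plain-ID (SD, n = 4), 32.9 ± 2.56 in control plain-ID (n = 8), 33.4 ± 4.24 in gluten-free S-ID (n = 5) and 33.4 ± 2.66 in control S-ID libraries (n = 3).

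The remaining members that averaged 1 CPM or more were not called within plain IDs. Col12a1, which binds the fibril surface, had medians of 26.8 CPM in gluten-free plain-ID, 19.3 in control plain-ID, 27.4 in gluten-free S-ID and 33.7 in control S-ID libraries. Those of Col7a1, the anchoring fibril collagen, were 32.1 CPM in gluten-free plain-ID, 30.3 in control plain-ID, 21.6 in gluten-free S-ID and 30.7 in control S-ID libraries. Those of Col8a2, a short-chain partner of Col8a1, were 22.1 CPM in gluten-free plain-ID, 14.9 in control plain-ID, 11.02 in gluten-free S-ID and 21.7 in control S-ID libraries. Col8a2 measured 1.36 CPM in gluten-free S5, its lowest library, and was highest in gluten-free 8. Col15a1, a relative of Col18a1, had medians of 7.56 CPM in gluten-free plain-ID, 6.32 in control plain-ID, 4.48 in gluten-free S-ID and 8.36 in control S-ID libraries. Those of Col11a2, a fibrillar collagen of cartilage, were 18.8 CPM in gluten-free plain-ID, 14.2 in control plain-ID, 15.9 in gluten-free S-ID and 10.2 in control S-ID libraries. Those of Col11a1, its partner, were 1.75 CPM in gluten-free plain-ID, 1.19 in control plain-ID, 0.719 in gluten-free S-ID and 2.21 in control S-ID libraries. Control S-ID libraries had the lowest median of Col11a2 and the highest of Col11a1. Col5a3, a further type V chain, had medians of 4.66 CPM in gluten-free plain-ID, 3.34 in control plain-ID, 2.56 in gluten-free S-ID and 3.90 in control S-ID libraries. In gluten-free plain-ID and control plain-ID libraries, the medians were 5.12 and 3.75 CPM for Col23a1 and 2.49 and 1.27 CPM for Col13a1, both membrane-spanning. They were 2.61 and 2.30 CPM for Col9a3, 2.60 and 3.05 CPM for Col26a1, and 2.11 and 1.08 CPM for Col28a1. In gluten-free S-ID and control S-ID libraries, the medians were 4.47 and 3.84 CPM for Col23a1, 2.03 and 1.53 CPM for Col13a1 and 2.43 and 1.59 CPM for Col9a3. They were 2.95 and 2.10 CPM for Col26a1 and 2.32 and 1.24 CPM for Col28a1. Col26a1 was the only member besides Col5a1 with a fold change below 0 within plain IDs (-0.14, adjusted p = 0.668, edgeR).

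Within plain IDs the marker sums also differed. The fibroblast sum was 251.3 to 394 CPM in gluten-free and 155 to 335 CPM in control libraries, and 7 of its 10 genes were called higher, where 17.5% of all genes were called higher and 22.1% lower. The mesothelial sum was 118 to 246 CPM in gluten-free and 65.5 to 190.0 CPM in control libraries, with 5 of 10 genes called higher. The endothelial sum was 519.6 to 659 CPM in gluten-free and 392 to 494 CPM in control libraries (3 of 8 genes called higher). The median fold change of the endothelial list was 0.20, and 2 of its 8 estimates were below 0. The smooth muscle sum was 246 to 353 CPM in gluten-free and 198 to 303 CPM in control libraries (2 of 7). The erythroid sum was 3136 to 5551 CPM in gluten-free and 7243 to 13084 CPM in control libraries, with 9 of 9 genes called lower. The lymphocyte sum was 1563 to 2106 CPM in gluten-free and 1029.5 to 2034 CPM in control libraries, with 4 of 7 genes called higher. TMM factors were 1.15 to 1.23 in gluten-free and 0.898 to 1.11 in control plain-ID libraries. The part of these cell types and of the scaling in the collagen differences was not tested. With library totals in place of scaling factors, 28 members were called higher and 0 lower, the median of all genes shifted to 0.31, and the members' median lay 0.36 above it, as it did with TMM. With upper quartile scaling 13 were called higher and 0 lower. The share of all genes called in such alternative fits is not given, here or below, so these counts cannot be set against it. Without gluten-free 8 or without gluten-free 9, 5 members were called. A joint fit of all 4 groups gave 6 calls and lost those of Col4a5, Col8a1 and Col6a6 (adjusted p = 0.122, 0.0965 and 0.0646 in edgeR). Among single libraries left out, the call was lost for Col27a1 and Col4a5 without either of these, for Col6a6 without gluten-free 8 and for Col6a1 without gluten-free 9. Col8a1 lost it without gluten-free 8, 9 or 10 or control 2, 3 or 7. Col5a1 lost it with upper quartile scaling (-0.30, adjusted p = 0.0669, edgeR) and with library totals (-0.11, adjusted p = 0.415, edgeR). It kept the call with RLE scaling, which uses the size factors of DESeq2. Col5a1 also lost the call without gluten-free 7 or 10 or control 4, 6 or 7.

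The ratio of partner chains within a library does not depend on the scaling. Col5a2 stood at 0.835, 0.889, 0.923 and 0.808 of Col5a1 (CPM per kb) in gluten-free libraries 7, 8, 9 and 10, and at 0.446 to 0.649 (median 0.528) in the 8 control plain-ID libraries. The plain-ID groups did not overlap. In S-ID libraries the ratio was 0.657, 0.473, 0.303, 0.759 and 0.436 in gluten-free mice and 0.665, 0.712 and 0.617 in control mice, which overlapped. The ratio of Col5a1 to Col1a2, the fibril that it helps to start, was 0.317 to 0.364 in gluten-free and 0.511 to 0.700 in control plain-ID libraries, again without overlap. Col6a3 stood at 0.116 to 0.147 of Col6a1 in gluten-free and at 0.159 to 0.245 in control plain-ID libraries, also without overlap. These were 3 of the 11 ratios computed, and the other 8 overlapped within plain IDs. Among those 8, Col1a1 stood at 0.837 to 1.03 of Col1a2 in gluten-free and at 0.720 to 1.03 in control plain-ID libraries. The ratio of Col4a2 to Col4a1 was 0.727 to 0.776 in gluten-free and 0.657 to 0.816 in control plain-ID libraries. The choice of these ratios followed a look at their values, so none was tested.

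**Figure D4:**
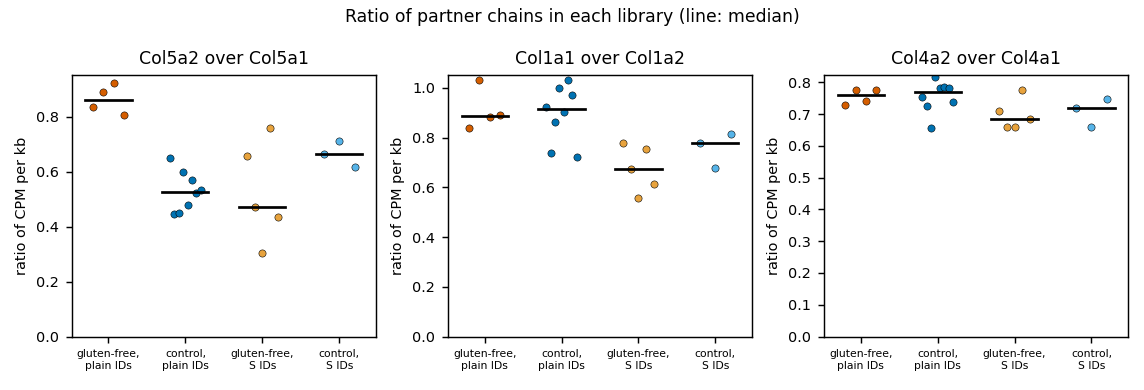
Ratio of CPM per kb of partner chains in each library, by diet and ID form; each point is 1 library and the line is the median. Col5a2 over Col5a1 lies between 0.808 and 0.923 in the gluten-free plain-ID libraries, above all 8 control plain-ID libraries, while the other 2 ratios overlap between the diets.

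Within the S IDs no member was called. At an unadjusted p under 0.05, 4 of the 38 members and 959 of the 18362 genes passed in edgeR, while 0% of all genes were called. At an adjusted p under 0.05, DESeq2 and limma-voom also called 0 members. The estimated fold change was below 0 for 27 of the 38 members, and the median was -0.43 against 0.01 for all genes. Col6a3, the long chain of type VI filaments, measured 27.1, 18.3, 8.53, 24.6 and 23.6 CPM in gluten-free and 37.9, 32.7 and 38.6 CPM in control S-ID libraries, and the groups did not overlap. Its fold change was -0.84 ± 0.30 (adjusted p = 0.908, edgeR). Col28a1 was the opposite case, at 1.58, 2.17, 3.21, 4.09 and 2.32 CPM in gluten-free and 1.24, 1.27 and 0.981 CPM in control S-ID libraries, also without overlap. Its fold change was 1.19 ± 0.36 (adjusted p = 0.908, edgeR), the highest of the 38. Without gluten-free S5 the median of the members was -0.28, and without gluten-free S1, the library with acinar RNA, it was -0.56.

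By type, the 6 type IV members had fold changes of -1.26 to -0.54 within S IDs, the 6 type VI members -1.32 to 0.10, and the 4 membrane-spanning members 0.01 to 0.54. The mesothelial sum was 21.7 to 171 CPM in gluten-free and 128 to 250.4 CPM in control S-ID libraries, and the fibroblast sum 122 to 302 CPM in gluten-free and 274 to 380.4 CPM in control S-ID libraries. No gene of either list was called. Their part in the collagen values was not tested.

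The diet difference of 8 members differed between the ID forms. In the interaction test of edgeR, which takes the diet change within S IDs minus that within plain IDs, 8 of the 38 members were called lower (21.1%) and 0 higher, where 24.8% of all genes were called, 9.37% lower and 15.4% higher. The median of the members was -0.76 against -0.02 for all genes, and 33 of the 38 were below 0. The type VI members called were Col6a1 (-1.60 ± 0.42, adjusted p = 0.0101, edgeR), Col6a6 (-2.50 ± 0.76, 0.0218) and Col6a3 (-1.10 ± 0.35, 0.0254). Those of type IV were the head-to-head genes Col4a5 (-1.89 ± 0.67, adjusted p = 0.0443, edgeR) and Col4a6 (-1.76 ± 0.54, 0.0215). Col4a6 measured 2.07, 4.67, 3.80 and 2.56 CPM in gluten-free plain-ID libraries and 1.75 to 3.99 CPM (median 1.94) in control plain-ID libraries. In S-ID libraries Col4a6 measured 3.05, 0.868, 0.741, 3.04 and 1.66 CPM in gluten-free and 6.19, 4.58 and 2.51 CPM in control mice. The groups of Col4a6 overlapped in both ID forms, with control S1 highest and gluten-free S5 lowest. The other called members were Col16a1 (-0.80 ± 0.23, adjusted p = 0.0150, edgeR), Col27a1 (-1.02 ± 0.30, 0.0185) and Col1a2 (-0.67 ± 0.24, 0.0466). Taken over all 38, the estimate was above 0 within plain IDs and below 0 within S IDs for 26 members, above 0 in both for 10, below 0 in both for 1 and below 0 within plain IDs alone for 1. Col5a1 was below 0 in both (-0.39 and -0.17). Without gluten-free S1 and control 4, the libraries with acinar RNA, 20 members were called lower. Leaving out single libraries gave 2 (without control S1), 3 (without gluten-free 8), 5 (without control S6), 13 (without gluten-free S6) and 17 calls (without gluten-free S1). Without control S1 the calls of Col16a1, Col4a6, Col6a3, Col6a6, Col4a5 and Col1a2 were lost, and without gluten-free 8 those of Col4a6, Col6a3, Col6a6, Col4a5 and Col1a2. Col6a3 was also lost without control S6 and Col6a6 without control S2. The calls of Col4a5 and Col1a2 were each lost in many of the single-library omissions, whereas Col6a1 and Col27a1 kept theirs in each setting run.

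**Figure D5:**
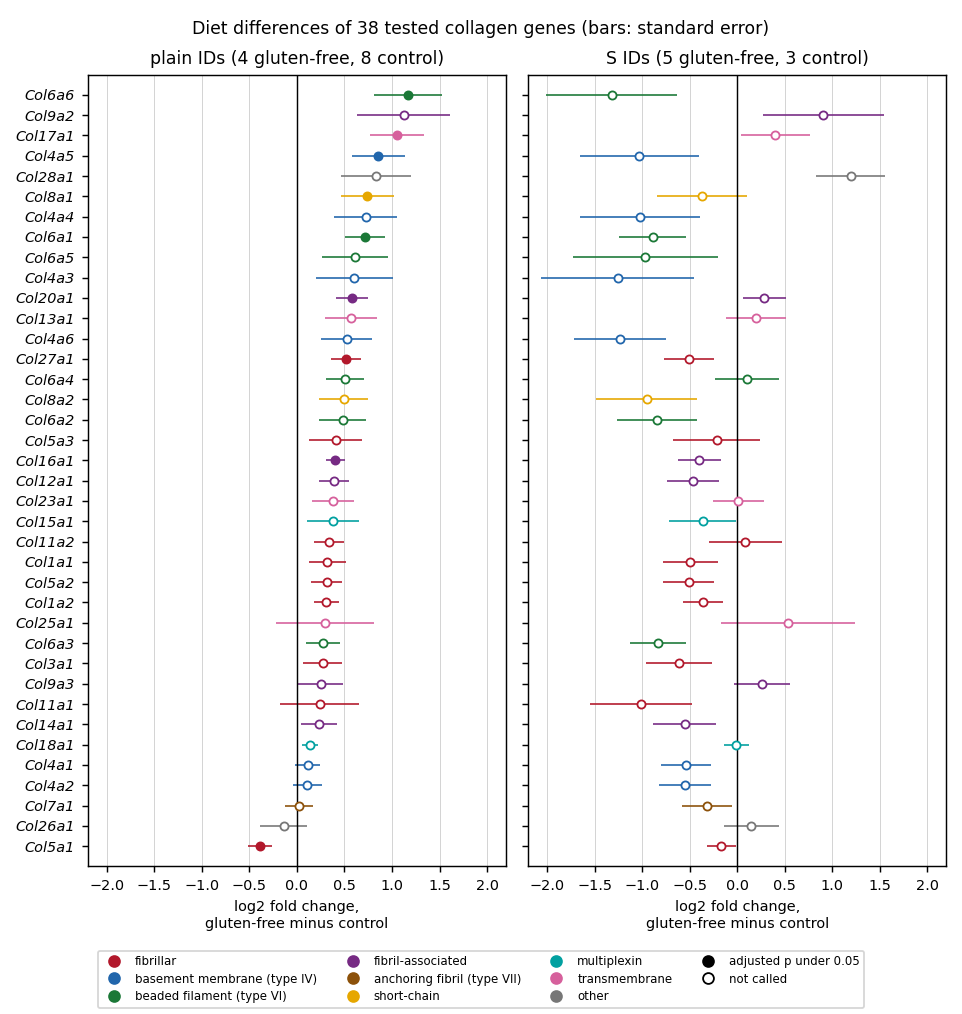
Log2 fold change, gluten-free minus control, of the 38 tested collagen genes within plain IDs (left) and within S IDs (right), with standard errors; colours give the collagen type, and filled points were called at an adjusted p under 0.05. On the left 36 genes lie above 0 and 9 points are filled; on the right 27 lie below 0 and none is filled.

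The ID forms were also compared within each diet. Among gluten-free mice, 6 members were called lower in S-ID than in plain-ID libraries (15.8% of 38) and 0 higher, where 31.9% of all genes were called, 15.4% lower and 16.6% higher. They were Col17a1 (-1.12 ± 0.28, adjusted p = 0.0109, edgeR), Col16a1 (-0.61 ± 0.18, 0.0217), Col27a1 (-0.74 ± 0.23, 0.0308), Col6a3 (-0.80 ± 0.26, 0.0367), Col1a1 (-0.74 ± 0.24, 0.0368) and Col6a1 (-0.93 ± 0.31, 0.0375). Of these, Col16a1 had no overlap between the ID forms. The count was 1 without gluten-free 8 or without 9, 2 without S3, 3 without 10, S5 or S8, 10 without S6 and 13 without S1. Col17a1 was the member called in each setting run. The median of the 38 members was -0.51 against -0.11 for all genes. Among control mice, 1 member was called higher in S-ID than in plain-ID libraries, where 2.16% of all genes were called, 1.64% higher and 0.517% lower. Col12a1 measured 39.4, 28.1 and 33.7 CPM in control S-ID libraries and 14.4 to 27.3 CPM (median 19.3) in control plain-ID libraries, which did not overlap, and the fold change was 0.73 ± 0.18 (adjusted p = 0.0462, edgeR). Its call was lost without control 2, 3, 6, 7, S1, S2 or S6, each left out alone. Col6a1 also had no overlap there, at 78.5 to 123 CPM in control S-ID and 28.8 to 77.7 CPM in control plain-ID libraries. It was not called (0.74 ± 0.23, adjusted p = 0.115, edgeR). The median of the members was 0.30 against 0.00 for all genes. Marker lists also differed between the ID forms. Among gluten-free mice, 9 of 9 erythroid and 7 of 9 acinar markers were called higher in S-ID libraries. The acinar calls rest on gluten-free S1, whose acinar sum was 10734 CPM. That sum was 6.61 to 29.0 CPM in the other gluten-free S-ID libraries and 7.43 to 9.95 CPM in the plain-ID ones. Called lower were 4 of 10 fibroblast and 2 of 7 smooth muscle markers. Of the mesothelial markers 1 of 10 was called lower, a share below the 15.4% of all genes. All 10 of their estimates were below 0, with a median of -1.21. Among control mice, 6 of 6 megakaryocyte, 2 of 10 fibroblast and 2 of 8 endothelial markers were called higher in S-ID libraries. Of the mesothelial markers 0 of 10 were called there, though all 10 estimates were above 0, with a median of 0.89. The part of these marker lists in the collagen values was not tested. These comparisons and those of the diets share libraries, so their values are not independent.

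Over both ID forms together, with the ID form as a term, no member was called for the diet (9 gluten-free and 11 control libraries), and 0% of all genes were. At an unadjusted p under 0.05, edgeR passed 6 members and 4559 of 18362 genes. At an adjusted p under 0.05, DESeq2 called 3 members (Col28a1, Col20a1 and Col17a1) and limma-voom 0. The smallest adjusted p in edgeR was 0.0979, shared by Col28a1, Col17a1 and Col20a1, whose fold changes were 0.98 ± 0.28, 0.80 ± 0.24 and 0.46 ± 0.14. The members' median was 0.05. Without control S6 the count was 6 and without gluten-free S8 it was 5, with Col5a1 as the lower one in both.

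Enzymes and partners of collagen were counted from lists within plain IDs, against the same 17.5% of all genes called higher and 22.1% lower; no gene of these lists was called lower there. Of 20 genes that modify and fold collagen in the cell, 6 were called higher, with a median of 0.21. They include P3h4, a partner of lysine hydroxylation (0.72, adjusted p = 0.00285, edgeR), and the lysyl hydroxylases Plod1 (0.38, adjusted p = 0.0173, edgeR) and Plod2 (0.37, adjusted p = 0.0228, edgeR). Of 11 tested genes that trim and cross-link collagen, 2 were called higher, the lysyl oxidases Loxl3 (0.59, adjusted p = 0.0134, edgeR) and Lox (0.78, adjusted p = 0.0143, edgeR). Of 13 tested genes of collagen breakdown and its inhibitors, 6 were called higher. Among these 6 were the neutrophil collagenase Mmp8 and the gelatinase Mmp9, with fold changes of 1.68 and 1.53. The highest fold change of the 13 tested genes was 2.61. The part of neutrophils in the values of Mmp8 and Mmp9 was not tested. Mmp8 averaged 38.4 ± 12.8 CPM in gluten-free and 12.02 ± 5.15 CPM in control plain-ID libraries (SD, n = 4 and 8), and Mmp9 57.1 ± 22.7 CPM in gluten-free and 19.8 ± 6.78 CPM in control plain-ID libraries. Timp3, an inhibitor of such enzymes, was also called higher (0.84, adjusted p = 0.00132, edgeR).

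Of the 9 collagen receptor genes, 6 were called higher, including the receptor kinases Ddr1 (0.54, adjusted p = 0.000292, edgeR) and Ddr2 (0.73, adjusted p = 0.000443, edgeR) and the platelet collagen receptor Gp6 (1.00, adjusted p = 0.000518, edgeR). The 6 megakaryocyte markers, which share the platelet lineage with Gp6, were also called higher, 6 of 6, and their part in the value of Gp6 was not tested. Of 12 fibril partners, 7 were called higher, with a median of 0.68; Dcn and Lum of this list are also among the fibroblast markers. Fn1, the fibronectin gene, averaged 285 ± 17.8 CPM in gluten-free and 176 ± 21.6 CPM in control plain-ID libraries, and the small proteoglycan genes Dcn (1.02, adjusted p = 8.50e-05, edgeR) and Prelp (0.96, adjusted p = 5.68e-05, edgeR) were also higher. Of 10 basement membrane partners of type IV collagen, 5 were called higher, including the laminin genes Lama5 (0.81, adjusted p = 0.00309, edgeR), Lama4 (0.67, adjusted p = 0.00115, edgeR) and Lamc1 (0.48, adjusted p = 0.00500, edgeR). Within S IDs none of the tested genes of these 6 lists was called, and their medians lay between -0.67 and -0.25. In the interaction test 9 of 12 fibril partners, 6 of 9 receptors, 6 of 13 genes of breakdown, 5 of 10 basement membrane partners, 4 of 20 genes of modification and folding and 2 of 11 genes of trimming and cross-linking were called lower, where 9.37% of all genes were.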

How the data were processed

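Total RNA of whole spleens was sequenced on an Illumina platform, per the labels' protocols. The authors deposited 1 table of whole-number read counts per gene with gene length, position and type. The submitters' processing notes name CASAVA, HISAT2 2.0.5, featureCounts 1.5.0 and GRCm38/mm10; the annotation release, the strand setting and the treatment of multi-mapping reads are not given in the sources used here. Diet and ID form came from the labels. The members and gene lists were chosen with earlier results of these data known.

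Counts were fitted with edgeR 4.0.16 (quasi-likelihood, TMM scaling, R 4.3.3) on the 18362 genes that passed filterByExpr over the 4 groups. Fits used the libraries of the groups compared, and the interaction used all 4 groups. P-values were adjusted by the Benjamini-Hochberg method over all tested genes, with calls at 0.05, and a fold change is the diet change, gluten-free minus control, or S minus plain. CPM per kb used the deposited gene length. Library totals of 13626000 to 24268200 counts limit the precision of low genes. Genes with values in every sample were those of highest level per kb and those of highest and lowest called fold change within plain IDs; list genes were named by smallest adjusted p. The alternatives were RLE (the size factors of DESeq2), upper quartile or no scaling, other low-count filters, DESeq2 1.42.0, limma-voom 3.58.1, and leaving out libraries. The fitting script was tested on simulated data. No duplicate libraries were found within a group, since the chi-square per degree of freedom between libraries of a group was 5.72 or more. Libraries of different groups were not compared in this way.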

Additional observations from a re-analysis of the deposited data

Results flagged for a closer look

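In 4 of the 111 group and gene pairs examined, 1 library stood apart from the rest of its group by Dixon's test; 1 in 20 by chance would be 5.55. Col11a2 measured 8.96 CPM in gluten-free S8, against 15.1 CPM in the nearest library of the gluten-free S-ID group. Col17a1 measured 5.92 CPM in gluten-free S6, against 3.03 CPM in the nearest of that group. Col13a1 measured 3.33 CPM in control 8, against 1.90 CPM in the nearest control plain-ID library. Col4a4 measured 11.8 CPM in control 4, against 5.40 CPM in the nearest control plain-ID library; control 4 also held 944 CPM of acinar markers, whose part in this value was not tested.

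For 8 members the diet change differed between the ID forms by edgeR's interaction test. The change within S IDs minus that within plain IDs was -1.60 for Col6a1, -2.50 for Col6a6, -1.10 for Col6a3, -1.89 for Col4a5, -1.76 for Col4a6, -0.80 for Col16a1, -1.02 for Col27a1 and -0.67 for Col1a2. The mesothelial list moved in the same direction, with 6 of 10 genes called lower, and so did the fibroblast list, with 8 of 10, where 9.37% of all genes were called lower. These lists share Wt1. The erythroid list (8 of 9) and the acinar list (9 of 9) were called higher in the same test, where 15.4% of all genes were. The acinar calls rest on gluten-free S1 (10734 CPM) and control 4 (944 CPM), with 29.0 CPM or less in the other 18 libraries. The part of these lists in the collagen values was not tested, and the meaning of the letter S is not stated.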

How the results depend on the processing

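No fold change of a called or named member turned its sign in 775 gene-level settings; 669 stayed on the same side of the threshold, 93 lost a call and 13 gained one. Within plain IDs, Col16a1, Col17a1 and Col20a1 kept their calls in each setting run. Col5a1 lost its call in 8 of 21 settings. Of members called within plain IDs, limma-voom gave 15, no scaling 28, and leaving out 1 library 5 to 13. Of those called between ID forms in gluten-free mice, no scaling gave 15, leaving out the libraries with acinar RNA 13, and leaving out 1 library 1 to 13. Among control mice a mean of at least 1 CPM, no scaling and 1 fit of 4 groups gave 0, without the libraries with acinar RNA 3, and leaving out 1 library 0 to 3. For the interaction limma-voom gave 14, no scaling 16, without the libraries with acinar RNA 20, and leaving out 1 library 2 to 17. Over both ID forms DESeq2 gave 3 and leaving out 1 library 0 to 6. Within S IDs each setting gave 0. The share of all genes called in each setting is not given, so these counts do not separate collagen genes from all genes. The cause of these shifts was not tested. No scaling and leaving out the libraries with acinar RNA were chosen after the data had been seen. Same-numbered gluten-free and control libraries did not deviate together throughout (correlations of -0.17 for 7, -0.20 for 8, 0.09 for S1 and 0.38 for S6), so the numbers were not treated as pairs; for the S IDs these values do not settle whether same-numbered libraries are related. With the replicate block over both ID forms, 0 members were called and their median was 0.14; the block was not run within plain IDs alone. Members under 1 CPM and Col6a6 rest on few counts.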
